A study of Ginkgo biloba with 2 samples.

Results

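Sterol biosynthesis was followed in *Ginkgo biloba* through 106 reference sequences, of 64515 with reads, that carry the gene ontology process term for sterol biosynthesis. They were found by that term in the deposited annotation, and 8 further carriers whose descriptions name enzymes of the mevalonate pathway were left out. The 106 are called members in the plots. The study set mature ovules against fully expanded leaves, both taken from female trees in April 2012, with 1 sequencing library for each organ. The labels do not say how many trees gave each sample or whether tissue was pooled. There are no replicates, so every difference below is between these libraries, no p-value was computed, and intervals cover counting error only. The ovule library held 4581771 uniquely mapped reads and the leaf library 4245222. In whole tissues, fewer cells of a type and less RNA per cell cannot be told apart.

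Sterols are membrane lipids that set the order and permeability of the plasma membrane. Plants close squalene epoxide into cycloartenol, a step that distinguishes their route from that of animals and fungi, and then remove methyl groups at carbons 4 and 14, add alkyl groups at carbon 24 and move the ring double bond to give sitosterol, stigmasterol and campesterol. Campesterol is the precursor of brassinosteroids, the steroid hormones of plants that promote cell expansion and division.

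The label fits the 106 sequences only in part. By their function terms, 19 sequences fell into 11 enzyme steps of the route from cycloartenol synthase to sterol delta-7 reductase. Of the other 87, 13 carried no function term, so their work is not known from it. The rest carried the process term beside function terms for other work. Among these were ATP-citrate synthase, pyruvate kinase, the pyruvate dehydrogenase complex, sphingolipid and GPI-anchor enzymes, aquaporins, tubulins and transporters. This division by function term was made after the tables had been seen. Only 2 of the 106 carried no process term but that for sterol biosynthesis, 52 also carried that for brassinosteroid biosynthesis and 46 that for acetyl-CoA metabolism. The descriptions are of little help, since 68 name no function and only 4 name a sterol enzyme. Of the 106 sequences, 92 were assembled and 14 came from GenBank. Fragments and copies of the same gene can stand as separate sequences, so the counts below are not counts of independent genes.

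The transcripts of the sterol enzymes were more abundant in the ovule library. Expression is given as RPKM, the reads on a sequence scaled to 1 kilobase of its length and to 1000000 uniquely mapped reads of its library. Sequences that reached an RPKM of 1 in either library were compared by log2((RPKM in ovule + 0.5)/(RPKM in leaf + 0.5)). The pseudocount pulls the ratios of weakly expressed sequences toward 0. A sequence counted as higher in 1 library when the absolute value was 1 or more, a 2-fold difference. Of the 19 sequences in a sterol step, all passed the filter, 15 were higher in ovule by this rule, none in leaf, and 4 differed by less than 2-fold. Their median log2 ratio was 1.95, with a range from 0.12 to 3.36. Their summed reads were 5795 in ovule and 1788 in leaf, a 3.0-fold difference per 1000000 reads (exact 95% counting interval, 2.85 to 3.17). With TMM scaling 15 were still called, and 18 of the 19 ratios stayed above 0, all but that of the cycloisomerase.

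Over all 106 sequences, 96 passed the filter, of which 61 were higher in ovule, 9 in leaf, and 26 differed by less than 2-fold. That is 63.5% and 9.38% of those that passed. The same rule put 27.3% of all 56768 sequences past the filter higher in ovule and 35.1% in leaf. For the 14860 that carried any process term the shares were 35.9% and 21.9%. The median log2 ratio was 1.41 for the sterol-term sequences, 0.42 for all sequences with a process term and -0.10 for all sequences. Together the 106 took 0.781% of ovule reads against 0.332% in leaf, 2.36-fold more in ovule (2.31 to 2.40). The sequences outside the steps leaned the same way, with 46 of 77 called higher in ovule, 9 in leaf and a median of 1.14.

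The lean toward ovule was also present among better measured sequences. Of the 69 sterol-term sequences that reached an RPKM of 10 in either library, 49 were called higher in ovule and 4 in leaf, beside 43.6% and 16.1% of the 8647 sequences with a process term at that level. Where a call also needed a counting interval that excluded 1, 56 and 6 of the 96 remained. That stands beside 4434 and 2257 of the 14860 sequences with a process term, and 17.3% and 13.6% of all sequences past the filter. An interval excludes 1 more easily where reads are many, and all sequences had fewer reads than the 96. All 15 calls among the sterol steps were kept under that rule. The median over all sequences was -0.23 with TMM scaling and -0.24 after conversion to TPM, so a ratio near 0 has no direction.

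**Figure D1:**
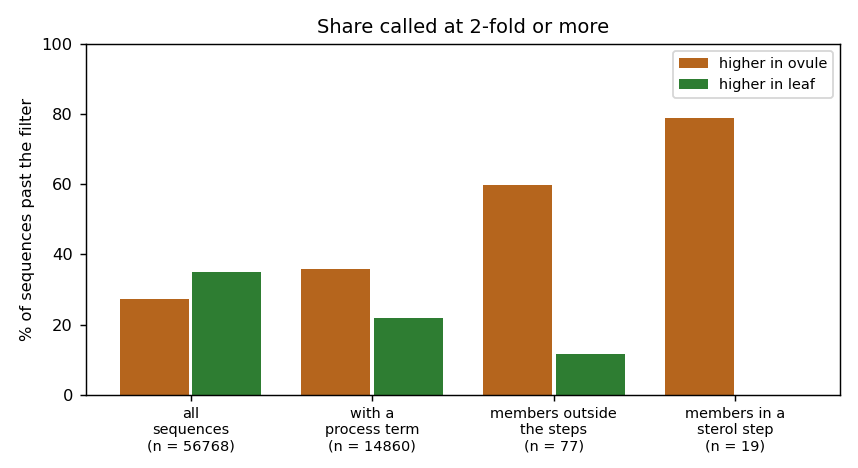
Bars give the percent of sequences past the expression filter that were called higher in ovule (brown) or in leaf (green) at 2-fold or more, for all sequences, those with any process term, the sterol-term sequences outside the steps and those in a sterol step. The ovule bar is tallest for the 19 sequences in a sterol step, at 78.9%, which have no leaf bar.

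The tissue labels were checked with marker lists. Their calls stand beside 27.3% of all sequences called higher in ovule and 35.1% in leaf. Leaf antenna proteins and Rubisco activase (47 sequences) had 4094 ovule reads against 11772 in leaf. Of the 26 that passed the filter, 14 were higher in leaf by the 2-fold rule and 1 in ovule. Where a call also needed an interval that excluded 1, 10 and 1 remained. GbMADS8, GbMADS10 and AINTEGUMENTA, regulators of reproductive organs and young ovules, had 1493 ovule and 11 leaf reads over 7 sequences, with 5 of the 6 past the filter called higher in ovule and 1 in leaf. Markers of dividing cells (histones, PCNA and MCM proteins, 37 sequences) moved with the sterol enzymes. They had 11253 ovule and 2155 leaf reads, 4.84-fold more in ovule (4.62 to 5.07), with 21 of 31 called higher in ovule and 2 in leaf. With an interval that also excluded 1, 18 and 0 remained. The part of these markers in the sterol result was not tested.

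Squalene synthase and squalene monooxygenase, which make and epoxidise the precursor, did not carry the sterol term and are given for context. The squalene synthase fragment Unigene29639 had 53 ovule and 5 leaf reads, 9.82-fold more in ovule (3.95 to 31.5). Squalene monooxygenase, summed over 3 sequences, was 1.90-fold higher in ovule (1.70 to 2.14), and its main sequence CL232.Contig2 had RPKM values of 98.6 and 51.9.

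Cycloartenol synthase folds the epoxide into the first sterol of the plant route. Its sequence Unigene14435 had 583 ovule and 99 leaf reads, an RPKM of 47.2 against 8.64. A GenBank sequence described as a cycloartenol synthase had 14 and 2 reads, a 6.49-fold ratio with a wide interval (1.49 to 58.8). Both sequences were higher in ovule, and the step summed to a 5.48-fold difference (4.43 to 6.83).

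The next enzymes attach the first extra carbon to the side chain and begin to strip the methyl groups from the ring. Sterol C24-methyltransferase, which acts on cycloartenol, was represented by Unigene16957 with 657 ovule and 135 leaf reads. Its RPKM values were 83.8 and 18.6, and it was 4.51-fold higher in ovule (3.74 to 5.47). The first sterol 4-methyl oxidase, which takes 4,4-dimethylsterols, stood at 65.4 and 16.5 (Unigene24913), 3.96-fold higher in ovule (3.23 to 4.89). These neighbouring steps differed between the libraries by ratios whose counting intervals overlap.

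Sterol-4-carboxylate dehydrogenase, the decarboxylase that completes removal of a 4-methyl group, had 3 sequences that did not behave alike. Unigene10548 had 120 ovule and 19 leaf reads, 5.85-fold more in ovule (3.59 to 10.1), and CL4824.Contig2 had 255 and 58, 4.07-fold more (3.05 to 5.52). CL4824.Contig1, which shares its cluster name with the latter, had 93 and 52 reads and was 1.66-fold higher (1.17 to 2.37). The step summed to 3.36-fold (2.76 to 4.12). Only uniquely mapped reads were counted, so the split between sequences of 1 cluster is uncertain. A further dehydrogenase without the sterol term, CL7198.Contig1, had 34 and 23 reads.

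Cycloeucalenol cycloisomerase, which opens the cyclopropane ring that is peculiar to plant sterol intermediates, stood apart from the other steps. Unigene5877 had 92 ovule and 78 leaf reads, an RPKM of 14.9 against 13.7. The ratio of 1.09 had a counting interval that includes 1 (0.799 to 1.5), and with TMM scaling the ratio was 0.983. It was the only one of the 11 steps whose interval did not lie above 1, and its interval lies below those of the other 10.

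After the ring opens, the 14-methyl group is removed and the double bond left behind is reduced and moved. Obtusifoliol 14-demethylase, a cytochrome P450 that did not carry the sterol term, was 3.61-fold higher in ovule (3.10 to 4.23), with Unigene24676 at 83.1 RPKM in ovule and 23.1 in leaf. Sterol C-14 reductase (Unigene27659) had 104 ovule and 16 leaf reads, an RPKM of 27.1 and 4.50, and the highest step ratio, 6.02-fold (3.54 to 10.9), with an interval that overlaps that of cycloartenol synthase. In *Arabidopsis* this enzyme is FACKEL, needed for embryo patterning. Sterol 8,7-isomerase (Unigene6932) stood at an RPKM of 65.7 and 22.7, 2.90-fold higher in ovule (2.24 to 3.78). The 3 intervals overlap one another.

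**Figure D2:**
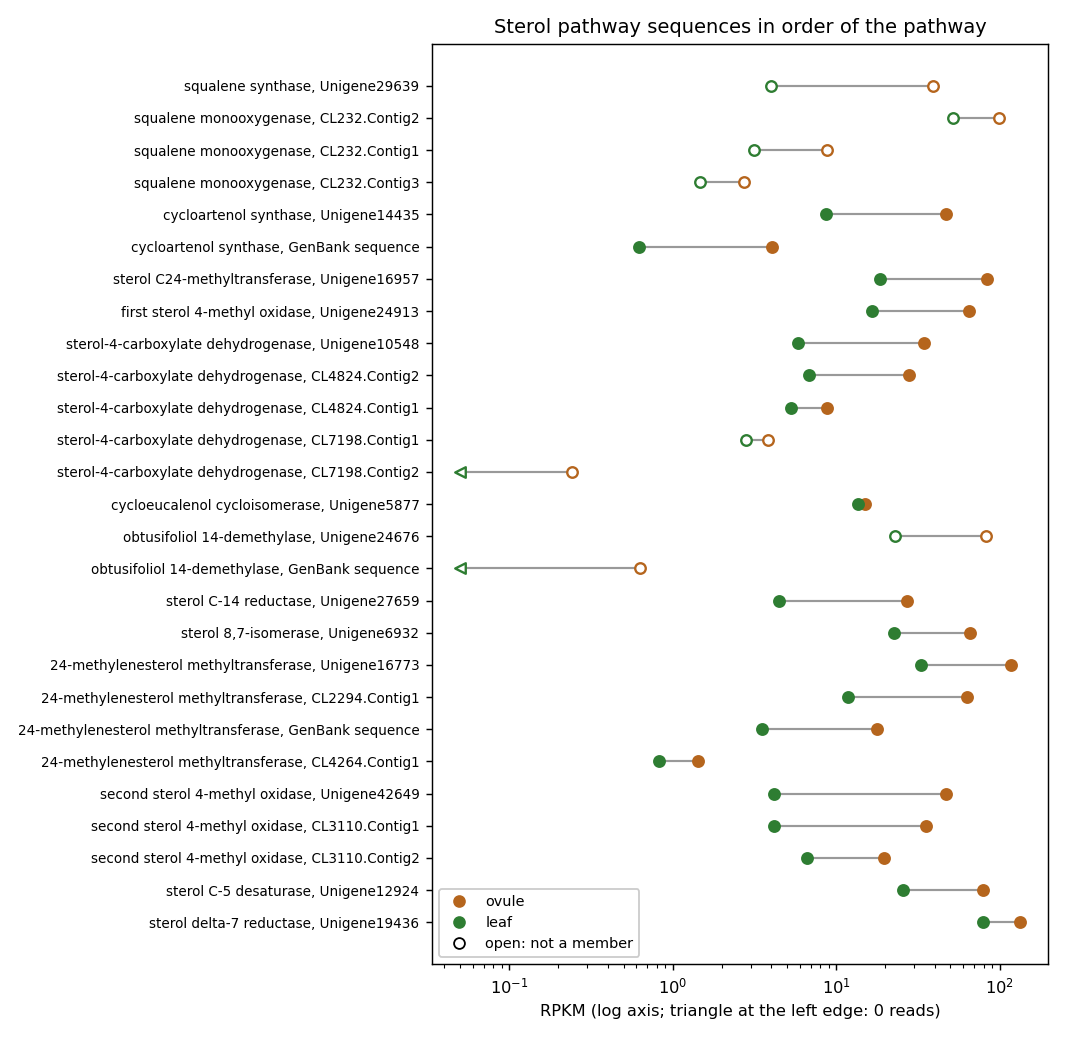
Each row is a sequence in pathway order, with its RPKM in ovule (brown) and leaf (green) on a log axis; filled points carry the sterol term and open points do not, and triangles mark 0 reads. Every filled row has its ovule point to the right of its leaf point, from the delta-7 reductase at 134 and 78.7 to CL4264.Contig1 at 1.42 and 0.824, and the points of the cycloisomerase nearly coincide and change sides with TMM scaling.

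The second methylation at carbon 24 is where the routes to campesterol and sitosterol part. Its enzyme is marked in the files by a function term given as a number alone, which in the Gene Ontology stands for 24-methylenesterol methyltransferase. Unigene16773 had 647 ovule and 169 leaf reads (RPKM 117 and 33.0) and CL2294.Contig1 had 389 and 68 (RPKM 63.0 and 11.9). Both were higher in ovule, by 3.55-fold (2.99 to 4.23) and 5.30-fold (4.09 to 6.96). A GenBank sequence of this class had 55 and 10 reads, and CL4264.Contig1 had 13 and 7 with an interval that includes 1 (0.638 to 5.09). The 4 sequences summed to 1104 and 254 reads, 4.03-fold more in ovule (3.51 to 4.63).

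The second sterol 4-methyl oxidase, which removes the remaining 4-methyl group from delta-7 sterols, had 3 sequences. CL3110.Contig2 had 144 ovule and 45 leaf reads, 2.97-fold more in ovule (2.11 to 4.24). CL3110.Contig1 had 55 and 6, and Unigene42649 had 49 and 4. All 3 were called higher in ovule, and the shorter fragments of 337 and 227 bases had the larger ratios, 8.49-fold (3.66 to 24.1) and 11.4-fold (4.16 to 43.3). The sum was 4.18-fold higher in ovule (3.11 to 5.70), and without CL3110.Contig2 it was 9.64-fold.

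The last ring changes are a desaturation at carbon 5 and a reduction at carbon 7. Sterol C-5 desaturase (Unigene12924) had 592 ovule and 179 leaf reads, an RPKM of 78.9 against 25.8, and was 3.06-fold higher in ovule (2.59 to 3.64). Sterol delta-7 reductase (Unigene19436), called DWARF5 in *Arabidopsis* after its brassinosteroid-deficient mutant, had the highest RPKM of the 19 in both libraries, 134 in ovule and 78.7 in leaf. With 1186 and 645 reads it was 1.70-fold higher in ovule (1.55 to 1.88), below the 2-fold rule, and 1.53-fold with TMM scaling. Its interval lies above 1 and below the intervals of all other steps but the cycloisomerase. Without its reads, the sum over the other 18 sequences was 3.74-fold higher in ovule (3.50 to 3.99). No sequence could be matched to sterol 24-reductase or to the C-22 desaturase that makes stigmasterol.

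**Figure D3:**
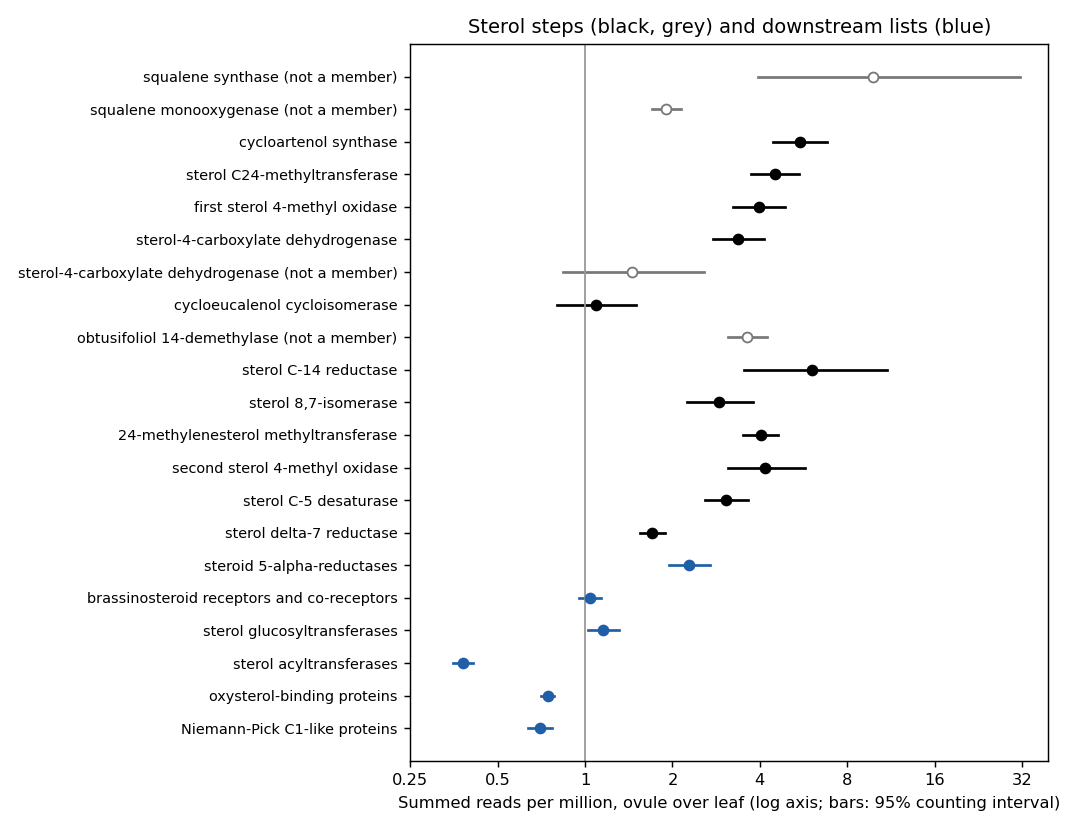
Points give summed reads per 1000000 in ovule over leaf on a log axis, with bars for the exact 95% counting interval, for the steps in pathway order (black), pathway sequences without the sterol term (grey, open) and lists of genes that use or move sterols (blue). The bars of 10 of the 11 black points lie above 1; the blue points lie at or under 2.28, and those of acyltransferases, oxysterol-binding and Niemann-Pick C1-like proteins lie below 1.

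Lists of genes that act on finished sterols were near even or summed higher in leaf. The list for sterol acyltransferases, which esterify sterols for storage, held 7 sequences matched by description or function term. It had 846 ovule and 2060 leaf reads, 2.63-fold more in leaf (2.43 to 2.85). Of the 7 sequences, 2 (28.6%) were called higher in leaf, beside 35.1% of all sequences, and none in ovule. The sum rests on these, with Unigene17704 at an RPKM of 23.2 and 81.9 and Unigene6238 at 24.3 and 69.1 in ovule and leaf. Unigene17704 is described only as a hypothetical protein, and Unigene6238 as lecithin-cholesterol acyltransferase-like 4. Their action on plant sterols is not shown by these data. The list held 3 ratios above 0 and 4 below, and the sequences described as phospholipid-sterol acyltransferases were under 2-fold, Unigene15893 with 83 ovule and 53 leaf reads, a ratio of 1.45 (1.02 to 2.09), and Unigene9983 with 11 and 9, a ratio of 1.13 (0.427 to 3.09). Oxysterol-binding proteins, lipid carriers at membrane contacts, summed to 1.35-fold more in leaf (1.28 to 1.42). Most of their reads were on CL7310.Contig1, with 2119 ovule and 2633 leaf reads, and without it the ratio was 1.37 (1.18 to 1.60). Of the 10 past the filter, 1 (10%) was called higher in leaf, beside 35.1% of all sequences. That call, of Unigene11493, rested on 0 ovule and 4 leaf reads, with an interval that includes 1. The Niemann-Pick C1-like sequence Unigene16255, of a family of sterol transporters, had 755 and 998 reads, 1.43-fold more in leaf (1.3 to 1.57). Sterol glucosyltransferases, which add a sugar to the sterol, summed to 1.16-fold more in ovule (1.02 to 1.31), and to 1.04 with TMM scaling. The intervals of the summed acyltransferases, the carriers and the transporter lie below those of all 11 sterol steps.

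Brassinosteroid genes were mixed. Steroid 5-alpha-reductases, which in *Arabidopsis* include DET2 of brassinosteroid synthesis, summed to 2.28-fold more in ovule (1.95 to 2.69). That value rests on Unigene6172 with 475 and 174 reads, which also carries function terms for fatty acid elongation. Without that sequence the ratio was 1.29 with an interval that includes 1 (0.860 to 1.96). Of the 5 sequences, 3 (60%) were called higher in ovule and 1 (20%) in leaf, all with an interval that excluded 1. The shares of all sequences were 27.3% and 35.1%. The other ovule calls had few reads, Unigene27158 with 15 and 4 and Unigene9510 with 13 and 3. The only sequence of the list whose description names the reductase, Unigene24969, went the other way, with 7 ovule and 24 leaf reads, 3.70-fold more in leaf (1.55 to 10.2). Receptors and co-receptors of the BRI1 and BAK1 type had 18 sequences, of which 7 were called higher in ovule and 7 in leaf. That is 38.9% each way, beside 27.3% and 35.1% of all sequences, so the leaf share is near that of all sequences. With an interval that also excluded 1, 6 and 6 remained. Unigene9289, described as a brassinosteroid-like receptor, had 369 ovule and 31 leaf reads, and Unigene1108, described as a BRI1 kinase, had 1 and 163. Their summed ratio was 1.04 (0.955 to 1.14), and 0.936 with TMM scaling. No sequence could be matched to the BZR1 or BES1 factors.

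**Figure D4:**
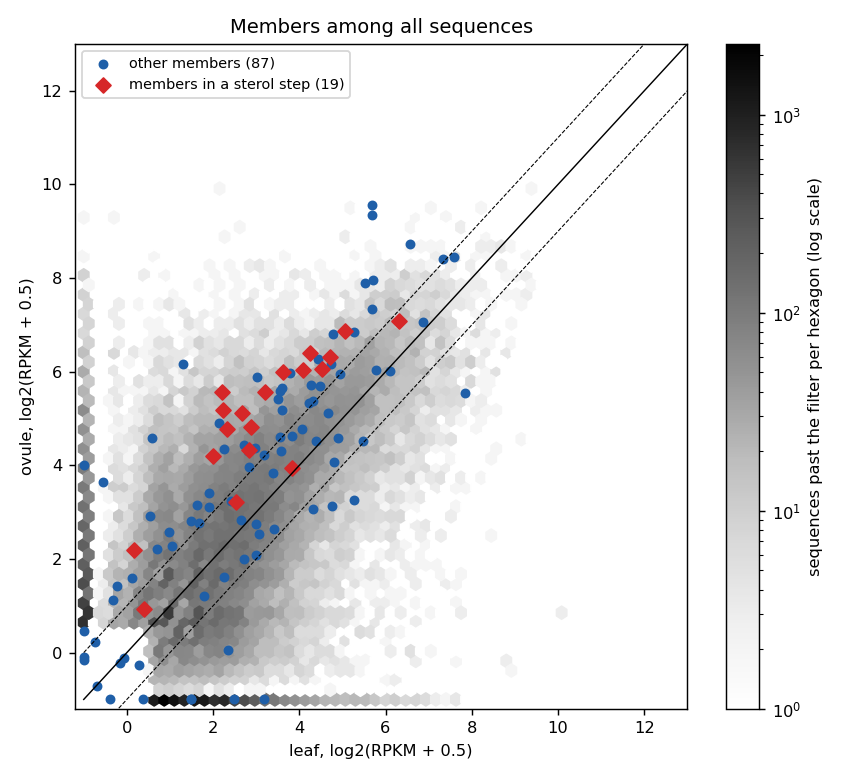
Each sterol-term sequence is placed by log2(RPKM + 0.5) in leaf and ovule, over a grey map of all 56768 sequences past the filter, with solid and dashed lines at equal expression and at a 2-fold difference. The red diamonds of the 19 sequences in a sterol step all lie above the solid line, 1 of which changes sides with TMM scaling (the cycloisomerase), and 15 of them lie above the upper dashed line.

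Outside the sterol steps, enzymes that supply or handle acetyl-CoA were among the most abundant sterol-term sequences. ATP-citrate synthase, which releases cytosolic acetyl-CoA from citrate, had 4072 ovule and 1856 leaf reads over 4 sequences, 2.03-fold more in ovule (1.92 to 2.15). Its most-read sequence Unigene16354 had RPKM values of 340 and 160.1, a log2 ratio of 1.08 that fell under the 2-fold rule at 0.93 with TMM scaling. Its neighbour Unigene16353 stood at 348 and 190.5 and was not called. CL5938.Contig3, with 1 and 8 reads, was called higher in leaf.

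Pyruvate-handling enzymes leaned further toward ovule. For comparison, 27.3% of all sequences and 35.9% of those with a process term were called higher in ovule. All 6 pyruvate kinase sequences past the filter, of 7, were called higher in ovule, 4 of them with an interval that excluded 1. Their sum was 5.0-fold higher (4.24 to 5.91) and 2.89-fold without CL4983.Contig3, which had 631 and 76 reads. The pyruvate dehydrogenase complex, which makes acetyl-CoA in organelles, was 4.83-fold higher (4.40 to 5.31). The complex had 4 of 5 sequences called, 3 of them with an interval that excluded 1. Its acetyltransferase subunit Unigene19303 had 2111 ovule and 372 leaf reads, an RPKM of 238 and 45.2. The carriers that exchange oxoglutarate for malate, Unigene16429 and Unigene16430, stood at 421 and 247 in ovule and at 93.6 and 52.04 in leaf, 4.50-fold (4.10 to 4.94) and 4.75-fold (4.02 to 5.63) higher.

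Some sugar-phosphate enzymes with the sterol term went the other way. Pyrophosphate-dependent phosphofructokinase, a glycolytic enzyme that uses pyrophosphate in place of ATP, had 51 ovule and 200 leaf reads on Unigene21264 and 33 and 98 on Unigene6735. Both were called higher in leaf, by 4.23-fold (3.10 to 5.88) and 3.21-fold (2.14 to 4.91). The transaldolase-type sequence Unigene24057, of the pentose phosphate pathway by its function term, had 350 and 1612 reads, an RPKM of 46.3 and 230.1, and was 4.97-fold higher in leaf (4.43 to 5.60). It was the most-read of the 9 sequences called higher in leaf.

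Enzymes of other membrane lipids also summed higher in ovule. Sphingolipid and very-long-chain fatty acid enzymes had 3 of 6 sequences (50%) called higher in ovule and none in leaf. The shares were 27.3% and 35.1% for all sequences, and 35.9% and 21.9% for those with a process term. Of the 3 calls, 2 had an interval that excluded 1, and that of Unigene54720 rested on 4 and 1 reads. The sum was 1.83-fold higher in ovule (1.69 to 1.99), and 1.455-fold without Unigene20819 (1.32 to 1.61). Unigene20819, a ketoreductase by its function terms, had 805 and 274 reads, whereas the ceramide synthase-type CL1997.Contig2, a sphingosine acyltransferase, had 554 and 428. Of the GPI-anchor enzymes, which attach proteins to a lipid anchor, the transamidase Unigene12694 had 441 and 95 reads, 4.30-fold more in ovule (3.44 to 5.43), and Unigene6740 had 145 and 97, 1.39-fold more (1.06 to 1.81). Their sum was 2.83-fold (2.40 to 3.35). Cytochrome b5 (Unigene27807), an electron carrier for sterol and fatty acid oxidases of the endoplasmic reticulum, had 83 and 28 reads, 2.75-fold more in ovule (1.77 to 4.38).

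Ratios above those of the sterol steps were found for structural and transport proteins. An aquaporin, Unigene11903, had 3829 ovule and 277 leaf reads, an RPKM of 649 against 50.7, and was 12.8-fold higher in ovule (11.3 to 14.5). The other 6 aquaporin sequences together had 181 and 303 reads, most of them on CL4137.Contig2 with 163 and 297. A GenBank tubulin sequence had the highest RPKM of all 106 in ovule, 757 against 50.99 in leaf, with 1473 and 92 reads. A second tubulin, Unigene13688, had 32 ovule reads, which covered 14.2% of its 450 bases, and 0 leaf reads. That is a 9.88-fold difference with a floor of 3 reads in the leaf library, and the exact interval has a lower limit of 7.58. Tubulin copies are near-identical in coding sequence, so the division of unique reads between them is uncertain.

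Further sequences stood far apart between the libraries. A GenBank sequence with peroxidase and phospholipid-binding terms had 233 ovule and 6 leaf reads, 36.0-fold more in ovule (16.3 to 99.1). The ovule reads covered 25.8% of its 717 bases. CL5122.Contig1, described as a probable inactive receptor kinase, had 139 and 2, a 64.4-fold ratio (17.5 to 537). Its ovule reads covered 15.0% of its 2532 bases. CL5122.Contig2, which shares its cluster name, had 7 and 1 reads, so the split of unique reads between them is uncertain. In the other direction, the ABC transporter CL4426.Contig1, of the pleiotropic drug resistance type, had no ovule read and 37 leaf reads. That is 13.3-fold more in leaf with the same floor in ovule, and the exact interval has a lower limit of 10.3. Ferredoxin-dependent sulfite reductase (CL7696.Contig1), of sulfur assimilation, was nearly even, with 1776 and 1434 reads, 1.15-fold (1.07 to 1.23).

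**Figure D5:**
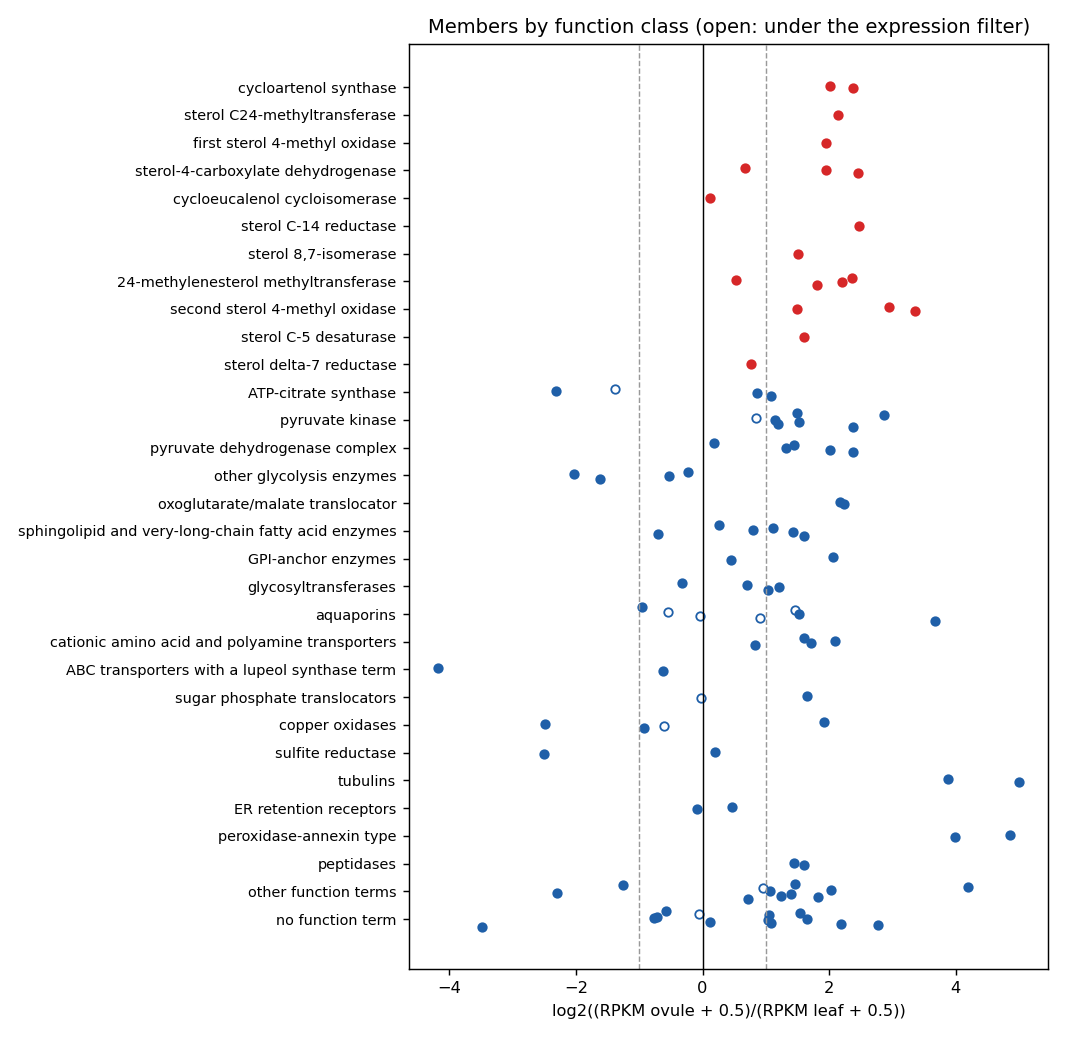
Each point is 1 of the 106 sequences, placed by its log2((RPKM in ovule + 0.5)/(RPKM in leaf + 0.5)) in the row of its function class, red for sterol steps and blue for the rest, open where it did not pass the filter. All red points lie to the right of 0 (with TMM scaling, all but the cycloisomerase), whereas blue classes such as ATP-citrate synthase and the copper oxidases lie on either side, and the row of other glycolysis enzymes lies to the left.

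Of the 9 sequences called higher in leaf, 4 rested on 8 reads or fewer in leaf and 1 or none in ovule, and 5 had at least 37 leaf reads. The latter were both phosphofructokinase sequences, the transaldolase-type sequence, the ABC transporter, and CL3613.Contig1, a heme-binding sequence with 82 ovule and 189 leaf reads. None of the 5 belonged to a sterol step. Of the 10 sequences that did not pass the filter, all were outside the steps and had between 1 and 8 reads over both libraries.

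The other process terms of the sequences are set beside the other carriers of each term. Of the 44 past the filter with the brassinosteroid biosynthesis term, 27 were called higher in ovule (61.4%) and 5 in leaf, beside 13 and 8 of 24 others. Of the 39 with the acetyl-CoA term, 26 (66.7%) and 3 were called, beside 4 and 4 of 11 others. The sphingoid biosynthesis term had 15 (60%) and 2 calls among 25 and no other carriers. These ovule shares are near the 63.5% of all sterol-term sequences. All 11 with a term for plant-type cell wall biogenesis were called higher in ovule, with a median log2 ratio of 2.02. Of these, 8 had an interval that excluded 1. Of 83 other sequences with that term, 43 were called higher in ovule, 36 with such an interval, and 10 in leaf. The 11 include pyruvate kinase and oxoglutarate/malate carrier sequences described above, so they are not a separate result. Of the 12 with a term for response to fructose, 4 were called higher in ovule and 3 in leaf (median -0.38), beside 41 and 16 of 81 others. By location term, 15 of 23 sequences of the endoplasmic reticulum, where most sterol enzymes reside, were called higher in ovule and 1 in leaf, beside 42.6% and 12.4% of the other carriers. Of 12 of the chloroplast stroma 9 and 1 were called, beside 27.4% and 30.7%. One sequence can carry several of these terms, so the counts share members.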

How the data were processed

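For each library the authors deposited, per the file headers, a count of uniquely mapped reads for every reference sequence, the sequence length, the percent of its bases that reads cover, RPKM, ontology terms and the top BLAST hit. Which assembler and aligner were run, and how strand was handled, is not given in the sources used here. Per the labels' protocols, a modified CTAB method gave the RNA and Illumina library preparation was standard. The tables were joined by identifier, with 0 reads for a sequence absent from 1 table. In every row RPKM equalled count over length and total to a relative tolerance of 1e-06. Sequences with a single read showed reads of 49 bases.

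With 1 library per tissue no test was run. Ratios are of reads per 1000000 with an exact Clopper-Pearson 95% interval (scipy 1.17.1) on both counts, and a ratio against 0 reads uses a floor of 3 reads. Duplicate reads could not be removed, so intervals and floors cover counting error only. Alternatives were other pseudocounts, filters, read minimums and member definitions, and TMM scaling (edgeR 4.0.16 in R 4.3.3). Python 3.11.15, pandas 2.3.3, numpy 2.4.6 and matplotlib 3.10.9 were used, and the code was checked on simulated data.

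The sequences and the gene lists were chosen with earlier results of these data known. The classes by function term, and the lists of pathway and downstream genes that also used function terms, were set after the tables had been seen, because few descriptions named an enzyme. The rule for named sequences took every sequence in a sterol step with at least 10 reads, the 2 of highest mean RPKM and the largest called each way in each other class, and the 5 of highest RPKM per library. It also took the most-read sequence of each list of the other genes. It gave 66 sterol-term sequences, of which the main ones are printed, and other sequences named in the text were chosen after their values were seen. No DNA or protein sequence is printed.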

Additional observations from a re-analysis of the deposited data

How the results depend on the processing

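Over the other pseudocounts, filters, scalings and member definitions run, the calls toward ovule stayed within 1.5 times of 61 and the median stayed positive, except where the members themselves were reduced. With the 4 sequences whose descriptions name a sterol enzyme, 4 were called higher in ovule and 0 in leaf, the median was 2.20 and the sum 4.78-fold. With the 19 in a sterol step, an alternative chosen after seeing the data, the values were 15, 0, 1.95 and 3.0-fold. These counts are lower because fewer sequences enter. Calls toward leaf fell from 9 to 5 with at least 20 reads in addition and to 4 at an RPKM of at least 10, the latter also chosen after seeing the data. The first dropped sequences with few reads, and the second also dropped CL4426.Contig1, with 37 leaf reads and an RPKM of 8.53 in leaf. With TMM scaling and with TPM, 53 sequences were called higher in ovule and 11 in leaf.

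The summed ratio of 2.36 was 2.26 with assembled sequences alone and 2.12 with TMM scaling. Without its most-read sequence, the 24-methylenesterol methyltransferase step rose from 4.03 to 4.98 and the second sterol 4-methyl oxidase from 4.18 to 9.64. The sequences removed had ratios below those sums, 3.55 for Unigene16773 and 2.97 for CL3110.Contig2. Why sequences of the same step differ was not tested. The delta-7 reductase moved from 1.70 to 1.53 with TMM scaling, whose construction multiplies every ratio by 0.899, and 12 of 15 step values moved by less than their counting interval. Of 264 values for 66 named sequences none changed sign once called, and 4 sequences crossed the 2-fold rule, with both scalings: Unigene16354 (1.08 to 0.93 with TMM), Unigene17429 (1.03 to 0.88), CL4137.Contig2 (-0.96 to -1.11) and Unigene9490 (-0.92 to -1.05). No paired analysis was possible because there is 1 library per tissue. Depth limits the set: 18 of 106 sequences had under 10 reads over both libraries, and differences between trees were not measured.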
